A study of Mus musculus with 6 samples.

Results

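Sarcomere genes of skeletal muscle were measured in the dental pulp of 3 WT and 3 Mmp13-/- mice. The members are 36 genes that encode the contractile and scaffold proteins of striated muscle, taken from the 53342 genes of the deposited table by their gene symbols alone, and each symbol matched 1 gene. They were divided by textbook expression into 10 genes of fast fibres, 7 genes of slow fibres and 19 structural genes. Most structural genes are shared between fibre types. The structural class also holds Myoz1 and Myoz3, which are of fast fibres, and Myoz2 and Csrp3, which are of slow fibres and heart. All mice were of the C57BL/6 strain and 3 months old, no treatment is given in the labels, and the Mmp13-/- mice lacked Mmp13, the gene of the collagenase matrix metalloproteinase 13, in every cell rather than in a chosen tissue. Molars and a column kit for the RNA are given in the labels, but incisors and TRIzol in the study's methods, so the tooth is given in 2 ways. The growth protocol in the labels names molars for both genotypes, whereas the sample titles name them for WT alone. The WT libraries carry the replicate numbers 2, 4 and 5 and the Mmp13-/- libraries the numbers 1, 2 and 6, and these numbers are used below as names.

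The sarcomere is the repeating unit of striated muscle. Thick filaments of myosin slide along thin filaments of actin, tropomyosin and troponin, titin spans from the Z-disc to the M band, and calcium binding to troponin C starts contraction. Fast and slow fibres use different genes for myosin heavy and light chains, myosin-binding protein C and the troponins. Skeletal actin, titin, nebulin and several other structural genes are shared. Dental pulp is a loose connective tissue with odontoblasts, vessels and nerves and is not known to contain striated muscle fibres.

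Sarcomere transcripts were abundant in every pulp library and fewer in all 3 Mmp13-/- libraries. The 36 genes took 12.6%, 10.8% and 11.1% of all estimated counts in WT libraries 2, 4 and 5, against 7.83%, 7.57% and 2.50% in Mmp13-/- libraries 1, 2 and 6. The genotypes did not overlap, and Mmp13-/- library 6 was the lowest. Genes outside the members that define skeletal muscle were present as well. All 11 markers listed for this purpose had counts in each library. Among them were muscle creatine kinase (Ckm), the calcium pump Atp2a1, the calcium release channel Ryr1 and the myogenic factors Myod1 and Myog. The 11 were chosen with earlier results of these data known, and are counted again in the muscle lists below. In Mmp13-/- library 6 Myod1 had 40.1 and Myog 11.7 estimated counts. The receptor gene rate described below would give 22.5% and 62.1% of these. The summed level of the 11 markers was 25857 to 29440 CPM in WT and 4247 to 10195 CPM in Mmp13-/-. CPM are counts per 1000000 after scaling by the TMM factors of edgeR. Of the 11, edgeR called 9 lower by more than 2-fold at an adjusted p under 0.05, beside 9.68% of all genes tested. The other 2, Pvalb and the myoglobin gene Mb, were not called. Mb had a mean of 814 CPM in WT and 805 CPM in Mmp13-/- (edgeR adjusted p = 0.967). The pulp and odontoblast list was also present without a gap in any library, at 73582 to 84059 CPM in WT and 23001 to 30774 CPM in Mmp13-/-. Its highest genes were the collagens Col1a1, Col1a2 and Col3a1. Their mean levels were 39813, 16794 and 19381 CPM in WT and 8890, 7026 and 6491 CPM in Mmp13-/-. Of its 12 genes 4 were lower by more than 2-fold, these collagens and Nes, beside 9.68% of all genes. Higher by more than 2-fold were 3, Dspp, Phex and Ibsp, beside 20.4% of all genes. These genes are named after their values were seen. In RNA from a whole tissue, fewer muscle fibres and less RNA per fibre cannot be told apart, and whether the transcripts came from the pulp itself or from muscle taken with it was not tested.

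Most fast and structural members were lower in Mmp13-/- pulp, and 5 of 7 slow, 2 of 10 fast and 5 of 19 structural members did not pass the test. edgeR called 22 of the 36 members lower by more than 2-fold at an adjusted p under 0.05, whereas 9.68% of the 24534 genes tested were called so. At any fold 24 members were called lower, beside 24.3% of all genes, and no member was called higher, beside 6710 of the 24534 genes. By more than 2-fold, 20.4% of all genes were called higher. By class, 8 of 10 fast, 13 of 19 structural and 1 of 7 slow members were lower by more than 2-fold. The median log2 fold change, Mmp13-/- minus WT, was -1.26 over the fast members, -1.41 over the structural members and 0.09 over the slow members, beside 0.10 over all genes tested. With upper-quartile factors 17 members were lower by more than 2-fold, among 1338 lower and 5867 higher genes in all, and with total counts 17, among 1762 and 5975, compared with 2375 lower and 5006 higher genes with TMM factors. All 36 members passed the filter on low counts. Every Mmp13-/- library lay below every WT library in 23 members, as it did in 29.1% of all genes tested.

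**Figure D1:**
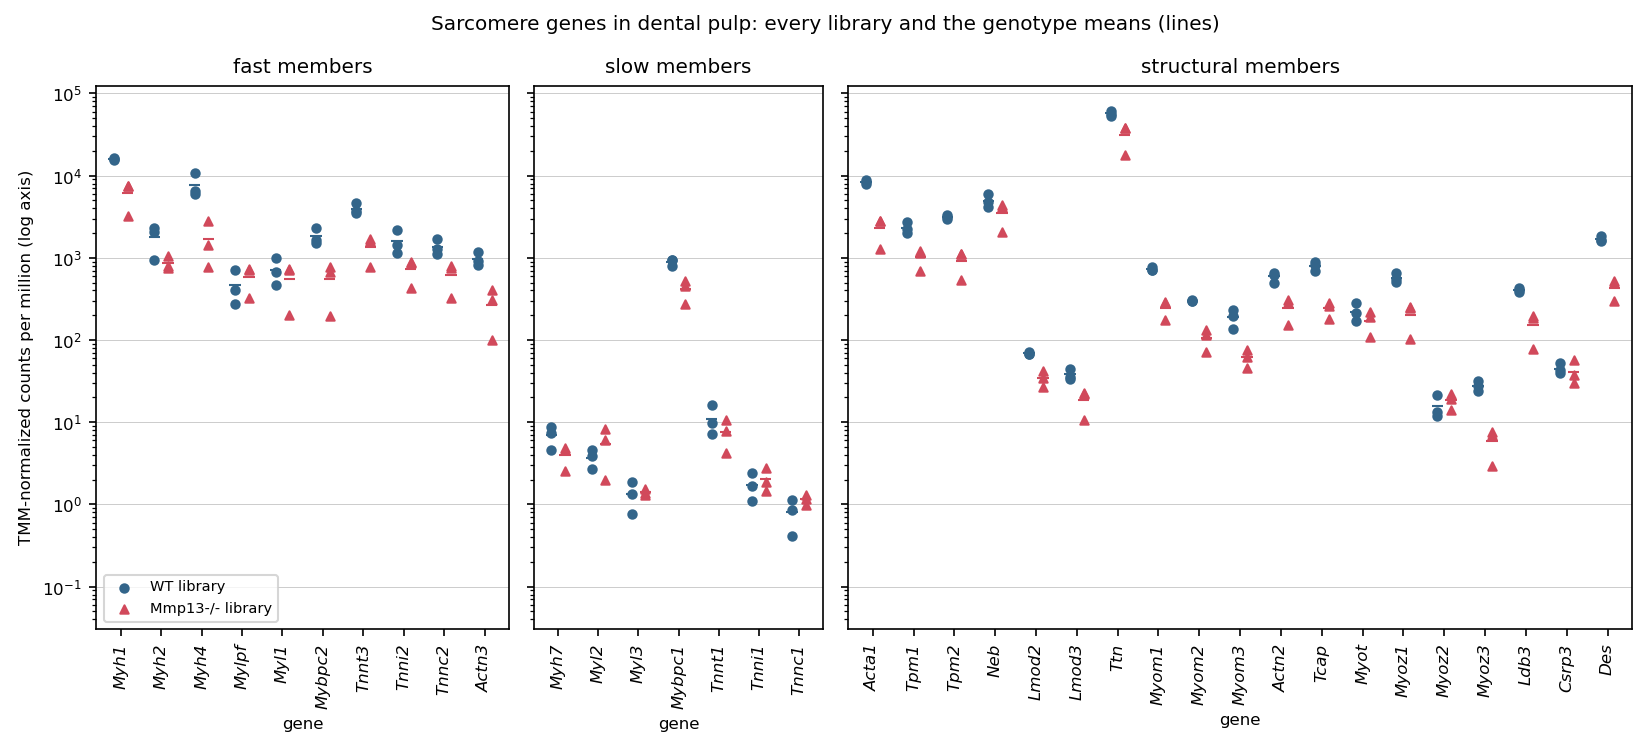
Level of each of the 36 sarcomere genes in each library, in CPM on a log axis, with WT as circles, Mmp13-/- as triangles and genotype means as lines. In the fast and structural panels most triangles sit below the circles, whereas in the slow panel 6 of 7 genes lie below 20 CPM and the genotypes mostly overlap.

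Libraries differed in ways that bear on these values. Totals were 28442936 to 29980236 estimated counts in WT and 21561420 to 26547121 in Mmp13-/-, and Mmp13 itself stood at 30.2 to 39.2 CPM in WT and 0.323 to 2.34 CPM in Mmp13-/-, in the direction of the labels. Mmp13-/- library 6 stood apart from the other Mmp13-/- libraries (chi-square per degree of freedom of 411 and 317 against them, 41.1 between those) and was the lowest of its genotype in 31 of 36 members. Counts over 1949 odorant and vomeronasal receptor genes, which pulp is not known to use, were 0.136 to 0.249 per kilobase of exon in WT and 1.61 to 4.86 in Mmp13-/-. Over 24492 genes with a known sequence, the log2 fold change had a Spearman's rho of -0.51 with GC content. B cell genes were higher by more than 2-fold for 7 of 8 genes and erythroid genes for 6 of 9, beside 20.4% of all genes. The summed level of the B cell genes was 45.6 to 50.1 CPM in WT and 69.8 to 94.6 CPM in Mmp13-/-. For the erythroid genes it was 899 to 1467 CPM against 2131 to 3999 CPM. The part of these differences in the change of the sarcomere genes was not tested. Without Mmp13-/- library 6 the members lower by more than 2-fold numbered 16, beside 9.32% of all genes, and those lower at any fold 23, beside 23.8%. The class medians were then -1.01 for fast, -1.09 for structural and -0.06 for slow members, beside 0.07 for all genes.

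Upstream sequence is shown for the members with the most reads, which are classical targets of muscle transcription factors. Whether these sequences have a part in the changes was not tested. The windows hold the 250 bases before the RefSeq transcript start, on the gene's own strand from 5' to 3', in the build GRCm38.p6. Capitals mark matches on either strand to the E-box CAGCTG, the TATA sequence TATAAA, the MCAT sequence CATTCC, the CArG box of serum response factor and the MEF2 site in its strict form, which starts with CTA and ends with TAG. Ttn and Myh1 had the highest mean levels, and Acta1 and Myh4 were added after their values were seen. The windows lie at chr2:76982548-76982797 on the minus strand for Ttn, chr11:67199852-67200101 on the plus strand for Myh1, chr8:123894776-123895025 on the minus strand for Acta1 and chr11:67237562-67237811 on the plus strand for Myh4.
Ttn: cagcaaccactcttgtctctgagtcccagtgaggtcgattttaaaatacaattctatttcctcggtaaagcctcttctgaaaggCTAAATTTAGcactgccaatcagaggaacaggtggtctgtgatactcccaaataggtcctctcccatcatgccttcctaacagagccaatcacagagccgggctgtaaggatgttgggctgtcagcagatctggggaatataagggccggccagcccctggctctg
Myh1: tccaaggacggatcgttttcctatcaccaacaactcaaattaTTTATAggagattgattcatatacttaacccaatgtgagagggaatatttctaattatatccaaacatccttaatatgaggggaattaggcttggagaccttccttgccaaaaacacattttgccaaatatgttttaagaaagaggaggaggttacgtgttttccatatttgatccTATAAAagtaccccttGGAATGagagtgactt
Acta1: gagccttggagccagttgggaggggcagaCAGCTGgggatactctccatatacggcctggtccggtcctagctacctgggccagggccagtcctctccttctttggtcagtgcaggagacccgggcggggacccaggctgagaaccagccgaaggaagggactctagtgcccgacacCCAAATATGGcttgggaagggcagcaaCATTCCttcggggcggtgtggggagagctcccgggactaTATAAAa
Myh4: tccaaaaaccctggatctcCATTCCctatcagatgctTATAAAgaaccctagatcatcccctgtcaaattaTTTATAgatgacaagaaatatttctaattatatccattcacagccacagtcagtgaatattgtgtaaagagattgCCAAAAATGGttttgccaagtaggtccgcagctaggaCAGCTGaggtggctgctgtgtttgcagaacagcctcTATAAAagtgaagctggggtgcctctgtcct

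The Acta1 window held a CArG box whose first base was 73 bases before the start, an E-box at 221, an MCAT sequence at 46 and a TATA sequence at 7. In the Myh4 window there were a CArG box at 104, an E-box at 67, an MCAT sequence at 231 and TATA sequences at 213, 179 and 31, while the neighbouring gene Myh1 had TATA sequences at 208 and 32, an MCAT sequence at 16 and no CArG box or E-box of this form. Ttn had the MEF2 site at 166 and none of the others. A wider MEF2 consensus, which allows either pyrimidine at the start and either purine at the end, was also met in Myh1 at 211 and in Myh4 at 182, where it overlaps a TATA sequence and only the latter is in capitals. RefSeq windows were found for 26 of the 36 members, 7 fast, 7 slow and 12 structural. The E-box CAGCTG was in 9 of the 26 (34.6%), beside 12.8% of the 27025 promoter windows of all genes, and CATTCC likewise in 9, beside 12.6%. TATAAA was in 5 (19.2%, beside 3504 of the 27025), the CArG box in 5 (19.2%, beside 1.40%), the strict MEF2 site in 2 (7.69%, beside 0.518%) and the wider one in 5 (19.2%, beside 3.01%). The CArG boxes were in 1 fast, 1 slow and 3 structural members. None of these matches was tested for binding, and longer or more distant elements were not searched.

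Myosin heavy chains, the motor proteins of the thick filament, were almost wholly of the fast kind. Myh1, the gene of the IIx heavy chain, was at 16059, 16507 and 15511 CPM in WT libraries 2, 4 and 5 and at 7556, 7446 and 3221 CPM in Mmp13-/- libraries 1, 2 and 6. All Mmp13-/- libraries were below all WT libraries, and the fall was 2.64-fold (log2 fold change -1.40 ± 0.37, SE; edgeR adjusted p = 0.0106). Myh4, the gene of the IIb heavy chain of the fastest fibres, was at 10737, 5922 and 6576 CPM in WT, against 1432, 2795 and 781 CPM in Mmp13-/-. WT library 2 was the highest, the genotypes were separate, and the fall of 4.64-fold (-2.21 ± 0.46; edgeR adjusted p = 0.00315) was, with that of Myoz3, one of the 2 largest among the 36 members. Myh2, the gene of the IIa heavy chain of fast oxidative fibres, was at 932, 2078 and 2297 CPM in WT, against 1059, 802 and 742 CPM in Mmp13-/-. WT library 2 lay here within the Mmp13-/- range, and the call (-1.03 ± 0.33; edgeR adjusted p = 0.0258) was lost without WT library 4 (adjusted p = 0.0848), without WT library 5 (0.0825), without Mmp13-/- library 6 (0.0599), with upper-quartile factors (0.0520), total counts (0.0806) or limma (0.0738), and after correction for GC content (0.290). Myh7, the heavy chain gene of slow fibres and of the heart ventricle, was at 4.54, 7.47 and 8.80 CPM in WT and 2.56, 4.81 and 4.59 CPM in Mmp13-/-. The genotypes overlapped, and its call (-0.81 ± 0.30; edgeR adjusted p = 0.0464) was lost without any 1 of the libraries WT 4, WT 5, Mmp13-/- 1 or Mmp13-/- 6, with an adjusted p of 0.0592 to 0.105, and under 5 other settings, GC correction among them (0.01, adjusted p = 0.978). With the receptor gene rate subtracted, Myh7 was called lower by more than 2-fold (-1.10, adjusted p = 0.0208).

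Within the 4 heavy chain genes, whose transcripts are of similar length, the fast genes Myh1, Myh2 and Myh4 took over 99.9% of the estimated counts in every library of both genotypes. Myh1 held the largest part, 57.9%, 67.3% and 63.6% in WT, compared with 75.2%, 67.4% and 67.8% in Mmp13-/-. For Myh4 the part was 38.7%, 24.2% and 27.0% in the WT libraries, compared with 14.3%, 25.3% and 16.4% for Mmp13-/-, so that the genotypes overlapped. The Myh2 part ran from 3.36% in WT library 2 to 15.6% in Mmp13-/- library 6, and the Myh7 part from 0.0164% to 0.0966% in the same libraries. Myh1, Myh2 and Myh4 are close paralogs in 1 gene cluster on chromosome 11. Of all 150-base windows of the longest transcript, 2.49% in Myh1, 2.06% in Myh2 and 0.51% in Myh4 occurred without a mismatch in another gene of the family, as did 5.43% of those of Myh7 in Myh6, so reads from those stretches could be divided between the genes. In addition, 8.11% of the Myh1 exon bases overlap the antisense RNA Myhas, whose mean count was 2827 against 314440 for Myh1, and whether the counting used strand is not given in the sources used here.

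**Figure D2:**
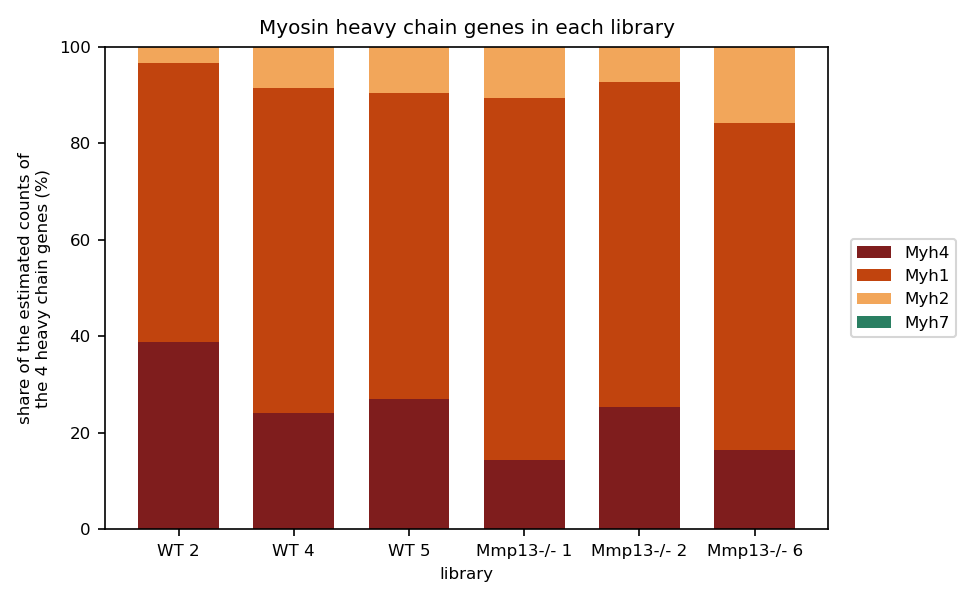
Share of each myosin heavy chain gene in the estimated counts of the 4 genes together (%), in each of the 6 libraries. Myh1 takes 57.9% to 75.2% of every bar, Myh4 14.3% to 38.7% and Myh2 3.36% to 15.6%, and Myh7, at most 0.0966%, is too small to see.

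Neither light chain gene of fast myosin passed the test. Mylpf, the regulatory light chain of fast fibres, was at 703, 273 and 405 CPM in WT, against 701, 725 and 320 CPM in Mmp13-/-. WT library 2 and Mmp13-/- libraries 1 and 2 were equally high, and the difference did not pass the test (0.34 ± 0.38, 95% interval -0.51 to 1.19; edgeR adjusted p = 0.483). Myl1, the essential light chain of fast fibres, was at 986, 461 and 674 CPM in WT, against 720, 725 and 201 CPM in Mmp13-/-. The genotypes overlapped (-0.37 ± 0.44, interval -1.35 to 0.62; edgeR adjusted p = 0.516), and without Mmp13-/- library 6 the log2 fold change was 0.04. The slow and ventricular regulatory light chain Myl2 was at 2.70, 4.59 and 3.86 CPM in WT and 8.35, 6.01 and 2.0 CPM in Mmp13-/-. Mmp13-/- library 6 was the lowest of all and the other Mmp13-/- libraries the highest (0.58 ± 0.42, interval -0.35 to 1.51; edgeR adjusted p = 0.270), and without library 6 Myl2 was called higher, with a log2 fold change of 0.96 and an adjusted p of 0.0191. Myl3, the essential light chain of slow fibres, was at 0.768, 1.34 and 1.89 CPM in WT and 1.29, 1.55 and 1.37 CPM in Mmp13-/-. Its genotypes overlapped (0.09 ± 0.39, interval -0.77 to 0.96; edgeR adjusted p = 0.856), and the sign turned under 4 of 17 other settings.

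Myosin-binding protein C, which brakes the myosin heads along the thick filament, fell in both its fast and its slow form. The fast gene Mybpc2 was at 2319, 1528 and 1642 CPM in WT, against 677, 768 and 198 CPM in Mmp13-/-. The groups were separate, with a fall of 3.34-fold (-1.74 ± 0.44; edgeR adjusted p = 0.00790) that missed the threshold after GC correction (adjusted p = 0.0702). The slow gene Mybpc1, which fast fibres also express, was at 938, 788 and 951 CPM in WT, against 525, 459 and 272 CPM in Mmp13-/-. It was the only slow member with separate genotypes and the only one lower by more than 2-fold (2.13-fold, -1.09 ± 0.26; edgeR adjusted p = 0.00572), a call that was lost with total counts as the scale (adjusted p = 0.0590). Its reads also made up nearly the whole of the slow class, since it alone held 94.4% to 98.25% of the normalized counts of the slow class.

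Among the troponins, the calcium switch of the thin filament, the 3 fast genes were called lower and the 3 slow genes were not called. Tnnt3, the tropomyosin-binding subunit T of fast fibres, was at 4619, 3459 and 3735 CPM in WT, against 1614, 1695 and 771 CPM in Mmp13-/-. The genotypes were separate, with a fall of 2.90-fold (-1.53 ± 0.33; edgeR adjusted p = 0.00346). Tnni2, the inhibitory subunit of fast fibres, was at 2203, 1132 and 1441 CPM in WT, against 883, 873 and 431 CPM in Mmp13-/-. It did not overlap between genotypes (2.18-fold lower, -1.13 ± 0.34; edgeR adjusted p = 0.0182), but the call was lost without WT library 2 (adjusted p = 0.0601), with total counts as the scale (0.0617) and after GC correction (0.365). Tnnc2, the calcium-binding subunit of fast fibres, was at 1704, 1108 and 1263 CPM in WT, against 747, 803 and 328 CPM in Mmp13-/-. Its groups were likewise separate (2.17-fold lower, -1.12 ± 0.34; edgeR adjusted p = 0.0182), and the call was lost under the same 3 settings (adjusted p of 0.0519, 0.0651 and 0.220). Exons of Ube2c, a cell cycle gene on the other strand, overlap 74.0% of the Tnnc2 exon bases, with a mean count of 3833 against 28232 for Tnnc2, so the Tnnc2 values may hold reads of Ube2c if strand was not used.

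Slow troponins were scarce. Tnnt1 was at 7.21, 9.66 and 16.3 CPM in WT, against 10.7, 7.77 and 4.23 CPM in Mmp13-/-. Its genotypes overlapped (-0.53 ± 0.35, interval -1.31 to 0.26; edgeR adjusted p = 0.235), although it was called lower without Mmp13-/- library 1 (-0.92, adjusted p = 0.0492) and without a filter on low counts (-0.63, 0.0168). Tnni1 was at 1.11, 1.66 and 2.42 CPM in WT and 1.44, 1.87 and 2.74 CPM in Mmp13-/-, with interleaved libraries and no call (0.21 ± 0.38, interval -0.63 to 1.04; edgeR adjusted p = 0.672). Tnnc1, the calcium-binding subunit that slow fibres share with the heart, was at 0.410, 0.864 and 1.13 CPM in WT and 1.16, 0.982 and 1.31 CPM in Mmp13-/-. WT library 2 was the lowest, and the difference did not pass the test (0.51 ± 0.46, interval -0.51 to 1.52; edgeR adjusted p = 0.374). These values rest on few reads. Tnnc1 had 11.9 to 36.5 estimated counts per library, Myl3 22.2 to 51.7 and Tnni1 32.0 to 66.4, and in Mmp13-/- library 6 the rate of the receptor genes over the same exon length would give 22.3%, 42.0% and 37.0% of the counts of these genes, and 52.8% of those of Myh7, compared with 0.456% to 2.80% in the WT libraries. Exons of Pth1r on the other strand overlap 4.65% of the Myl3 exon bases, with a mean count of 1249 for Pth1r and 37.3 for Myl3.

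Per kilobase of exon, the fast partner stood over 100-fold above the slow one in every library for 6 of 7 pairs, and the pair of Mybpc2 and Mybpc1 was the exception. Tnnt3 exceeded Tnnt1 by 319-fold to 892-fold in the WT libraries and by 210-fold to 304-fold in the Mmp13-/- libraries, Tnnc2 exceeded Tnnc1 by 1452-fold to 5408-fold and by 325-fold to 1064-fold, and Mybpc2 exceeded Mybpc1 by 2.16-fold to 3.10-fold in WT and stood at 0.914 to 2.10 times its level in Mmp13-/-. In these 3 pairs the ratio was lower in every Mmp13-/- library than in every WT library. The ranges overlapped for Myh1 over Myh7 (2390-fold to 4793-fold in WT, 952-fold to 4003-fold in Mmp13-/-), Tnni2 over Tnni1 (1430-fold to 4794-fold, 378-fold to 1470-fold), Myl1 over Myl3 (340-fold to 1266-fold, 144-fold to 550-fold) and Mylpf over Myl2 (109-fold to 479-fold, 154-fold to 294-fold). No test was made of these ratios, and how often other pairs of genes separate in this way was not computed. The receptor gene rate, not subtracted here, would give 22.3% of the Tnnc1 and 14.7% of the Tnnt1 counts in Mmp13-/- library 6. The Tnnc2 values may also hold reads of Ube2c.

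The WT libraries also differed among themselves. In WT library 2, 8 of 10 fast members were at their highest of the 3 WT libraries and 6 of 7 slow members at their lowest. The exceptions among the fast genes were Myh1, which hardly varied, and Myh2, which was lowest there. In WT library 5, 6 of 7 slow members were at their highest. The share of all genes at their highest or lowest in these libraries was not computed. Genes of the same 3 libraries are not replicates, and the slow genes Tnnc1, Myl3 and Tnni1 rest on few reads. The spread was wide for Myh2 (1769 ± 734 CPM, SD, n = 3), Mylpf (461 ± 220) and Tnnc1 (0.802 ± 0.365), and narrow for Myh1 (16026 ± 499), Myom2 (299 ± 4.89) and Lmod2 (69.0 ± 2.31).

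In the thin filament, skeletal actin and the tropomyosins fell and nebulin did not pass the test. Acta1, the gene of skeletal alpha-actin, was at 8872, 8441 and 7942 CPM in WT, against 2769, 2808 and 1291 CPM in Mmp13-/-. The groups were far apart, with a fall of 3.68-fold (-1.88 ± 0.34; edgeR adjusted p = 0.00154). Tpm2, beta-tropomyosin, fell by 3.44-fold (-1.78) and Tpm1, alpha-tropomyosin, by 2.29-fold (-1.20), although both are also used outside skeletal muscle. Neb, the giant nebulin that runs along the thin filament, was at 5984, 4124 and 4794 CPM in WT, against 4348, 4176 and 2070 CPM in Mmp13-/-. Mmp13-/- libraries 1 and 2 lay within the WT range (-0.49 ± 0.33, interval -1.23 to 0.25; edgeR adjusted p = 0.239). The leiomodins, which help actin filaments to grow, were lower by -0.99 (Lmod2) and -1.04 (Lmod3) on the log2 scale, at 69.0 ± 2.31 and 38.0 ± 5.89 CPM in WT and 34.6 ± 7.91 and 18.5 ± 6.72 CPM in Mmp13-/- (SD, n = 3), so that only Lmod3 passed the 2-fold limit.

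Ttn, the gene of the giant spring protein titin, gave more counts than any other member. It was at 61617, 53097 and 56113 CPM in WT, against 37400, 38056 and 17956 CPM in Mmp13-/-. The groups were separate, yet the fall of 1.83-fold did not pass the main test (-0.87 ± 0.41, interval -1.78 to 0.04; edgeR adjusted p = 0.10). It was called lower with DESeq2 (adjusted p = 0.00112), with limma on the deposited log2 values (0.0462), by the study's procedure as far as its steps are stated (q = 0.0311) and without Mmp13-/- library 6 (-0.59, edgeR adjusted p = 0.0231). Ttn made up 47.2% to 48.7% of all sarcomere counts in WT and 56.7% to 57.5% in Mmp13-/-, without overlap. With 117 kb of exon it ranked lower per kilobase, at 487 CPM per kb in WT against 5481 for Acta1, 2523 for Myh1 and 2488 for Tnnt3.

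All 3 genes of the M band, where thick filaments are linked in mid-sarcomere, fell together. Myom1 was at 774, 708 and 714 CPM in WT, against 278, 289 and 174 CPM in Mmp13-/-. The genotypes were separate (2.97-fold lower, -1.57 ± 0.23; edgeR adjusted p = 0.000454), and Myom2, at -1.49, and Myom3, at -1.61, were close to it. Each of the 3 was called lower under every one of 17 other settings.

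Z-disc genes, whose products anchor the thin filaments, were split. Tcap, the titin cap telethonin, was at 681, 878 and 810 CPM in WT, against 258, 285 and 182 CPM in Mmp13-/-. The groups were separate (3.27-fold lower, -1.71 ± 0.22; edgeR adjusted p = 0.000279). Actn3, the alpha-actinin of fast fibres, was at 1183, 924 and 825 CPM in WT, against 305, 404 and 98.8 CPM in Mmp13-/-. The groups were again separate (3.63-fold lower, -1.86 ± 0.43; edgeR adjusted p = 0.00494), and the call was lost after GC correction (adjusted p = 0.0770). The alpha-actinin Actn2, found in all striated fibres, was lower by -1.28 (not called after GC correction, adjusted p = 0.0633), the PDZ and LIM protein Ldb3 by -1.41, and the calcineurin-binding calsarcins of fast fibres Myoz1 and Myoz3 by -1.50 and -2.22 on the log2 scale. Myoz3 had the lowest level of these, at 27.6 ± 3.74 CPM in WT and 5.84 ± 2.57 CPM in Mmp13-/- (SD, n = 3).

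The other Z-disc members did not pass the test. Myoz2, the calsarcin of slow fibres and the heart, was at 11.9, 13.5 and 21.5 CPM in WT, against 19.3, 14.1 and 22.2 CPM in Mmp13-/-. Libraries of both genotypes were interleaved (0.24 ± 0.24, interval -0.30 to 0.78; edgeR adjusted p = 0.433). Myot, which crosslinks actin at the Z-disc, was at 283, 169 and 211 CPM in WT, against 217, 192 and 108 CPM in Mmp13-/-, with overlap (-0.36 ± 0.27, interval -0.97 to 0.25; edgeR adjusted p = 0.301). Csrp3, the muscle LIM protein of slow fibres and heart, was at 42.7, 39.3 and 52.3 CPM in WT, against 56.3, 37.9 and 29.7 CPM in Mmp13-/-. The genotypes overlapped (-0.11 ± 0.22, interval -0.61 to 0.39; edgeR adjusted p = 0.700), and the sign turned under 5 of 17 other settings.

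Des, the gene of desmin, the intermediate filament that ties neighbouring Z-discs together and that smooth muscle also uses, was at 1592, 1820 and 1639 CPM in WT, against 515, 491 and 296 CPM in Mmp13-/-. The groups were separate, with a fall of 3.88-fold (-1.96 ± 0.26; edgeR adjusted p = 0.000278). Of 12 smooth muscle genes, 4 were lower and 1 higher by more than 2-fold, beside 9.68% and 20.4% of all genes. The median over the 12 was 0.28 on the log2 scale, beside 0.10 over all genes tested.

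**Figure D3:**
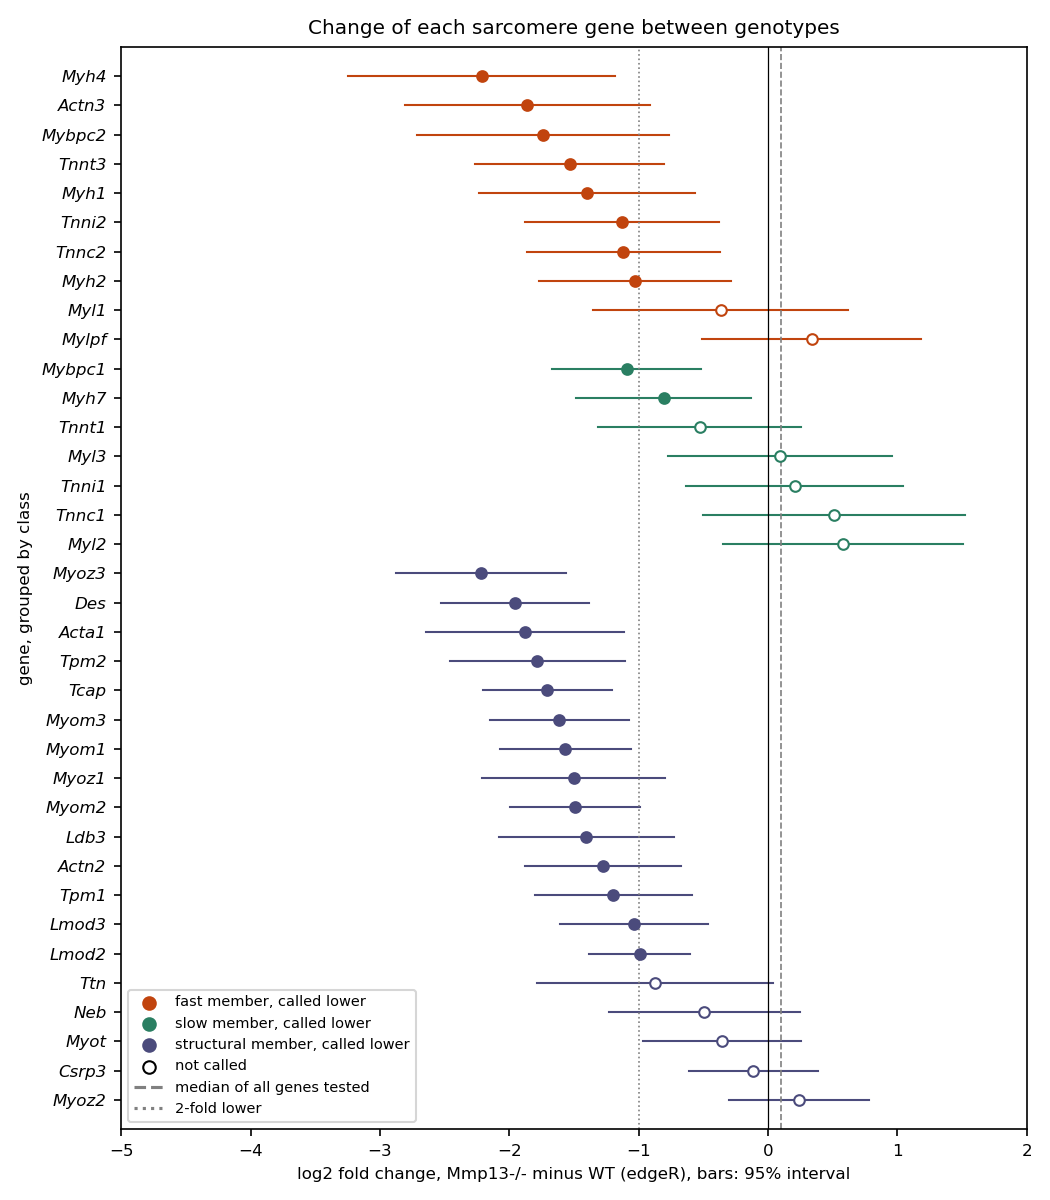
Log2 fold change of each member, Mmp13-/- minus WT, with its 95% interval from edgeR, grouped by class and coloured by it. Filled points were called at an adjusted p under 0.05, the dashed line marks the median of all genes tested (0.10) and the dotted line a 2-fold fall. The fast genes run from -2.21 (Myh4) to 0.34 (Mylpf), the slow genes from -1.09 (Mybpc1) to 0.58 (Myl2), and the structural genes from -2.22 (Myoz3) to 0.24 (Myoz2).

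GC content moved with the size of the fall. Members ran from 39.7% GC (Myoz2) to 61.3% (Tcap). Over the 36 members the log2 fold change had a Spearman's rho of -0.56 with GC content, beside -0.51 over 24492 genes. This is a description over genes that share the same libraries. Corrected for GC content in each library, 10 members stayed lower by more than 2-fold, beside 3.03% of all genes, and 17 lower at any fold, beside 12.9%. By class 2 of 10 fast, 7 of 19 structural and 1 of 7 slow members were then lower by more than 2-fold, and 3, 13 and 1 at any fold. The class medians were then -0.72 for fast, -0.89 for structural and 0.41 for slow members, beside 0.22 for all genes, and rho over the members was -0.14. The correction is fitted to these same libraries to remove such a trend, so the smaller rho is in part built in. Tcap went from -1.71 to -0.60 and Acta1 from -1.88 to -1.05, both still called (adjusted p of 0.0204 and 0.0200), while Myoz3 (-1.88) and Myh4 (-1.73) kept the largest falls. The distance between the fast and the slow median was -1.36 on the log2 scale as fitted and -1.12 after GC correction, and between -1.74 and -0.95 over 16 other settings. The part of GC content in the falls was not tested beyond this correction.

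**Figure D4:**
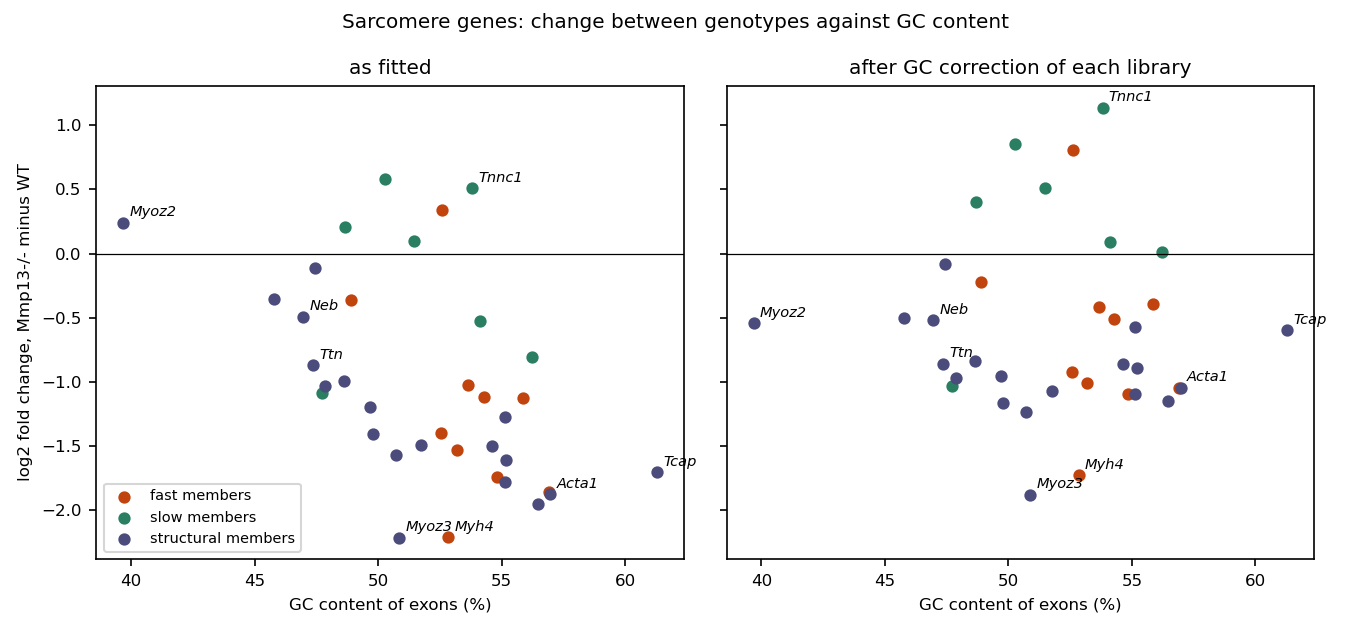
Log2 fold change of the 36 members, Mmp13-/- minus WT, against the GC content of their exons (%), as fitted on the left and after GC correction of each library on the right, with colours for the classes. The downward slope on the left (Spearman's rho -0.56) is mostly gone on the right (-0.14), where the fast and structural members still lie mainly below 0 and 6 of 7 slow members at or above it.

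Genes that work beside the sarcomere were mostly lower as well. Beside the counts of this paragraph, 9.68% of all genes tested were lower and 20.4% higher by more than 2-fold, with a median of 0.10. The skeletal muscle markers counted earlier all belong to the lists below, so they are counted here again. Of 30 other sarcomere and assembly genes 21 were lower by more than 2-fold, and the median of the list was -1.48. Flnc, filamin C, changed by -1.55, and Xirp2, an actin-binding repeat protein, was at -0.13 without passing the test (edgeR adjusted p = 0.723). In excitation-contraction coupling 12 of 17 genes were lower and 2 higher by more than 2-fold, with a median of -1.63. The higher ones, named after their values were seen, were Trdn, the junctional protein triadin (1.20, and -0.03 after GC correction), and Sln, the calcium pump regulator sarcolipin (2.20, and 2.31 without a call after GC correction, edgeR adjusted p = 0.0556). The WT libraries held Sln at 0.829, 1.24 and 1.10 CPM, the Mmp13-/- libraries at 1.97, 1.54 and 11.4 CPM, and library 6 lay far above the rest. Atp2a1, the calcium pump of fast fibres, changed by -2.0 and Ryr1 by -2.06, and Pvalb, the calcium buffer parvalbumin, was at -1.10 (edgeR adjusted p = 0.0558). Muscle energy metabolism had 9 of 15 genes lower and a median of -1.33, with Ckm at -1.78, the glycogen phosphorylase Pygm at -1.95 and the enolase Eno3 at -1.33. After GC correction Eno3 was no longer called (-0.70, edgeR adjusted p = 0.0753), and the called values were -0.60 for Flnc, -1.30 for Atp2a1, -1.16 for Ryr1, -1.19 for Ckm and -1.28 for Pygm, while Xirp2 became called (-0.63, 0.0329). Among 16 myogenic factors and developmental isoforms 4 were lower and 1 higher by more than 2-fold, with a median of -0.72. These, likewise named after their values were seen, were the transcription factors Myod1 (-2.13), Myog (-1.26), Myf6 (-1.07) and Mef2d (-1.49), and Chrng, the fetal subunit of the acetylcholine receptor (2.05). The call of Myog was lost after GC correction (-0.59, edgeR adjusted p = 0.250) and that of Chrng after subtraction of the receptor gene rate (1.30, 0.0675), a rate that would give 27.4% to 71.2% of its counts in the Mmp13-/- libraries. The perinatal heavy chain Myh8 was at 601, 1130 and 937 CPM in WT, against 819, 578 and 256 CPM in Mmp13-/-, and its genotypes overlapped (-0.69; edgeR adjusted p = 0.162). Mef2c changed by -0.65 (edgeR adjusted p = 0.0298) and Ncam1 was at 0.15 (0.447). After GC correction the medians of the 4 lists were -0.87, -0.95, -0.78 and -0.14, beside 0.22 for all genes.

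Genes listed as cardiac, not all of them used by the heart alone, were near the floor. For the lists of this paragraph, the shares over all genes tested were again 9.68% lower and 20.4% higher by more than 2-fold, with a median of 0.10. Of the 10 genes 8 passed the filter, none was lower, 3 were higher by more than 2-fold, and their summed level was 14.9 to 16.7 CPM in WT and 16.8 to 38.7 CPM in Mmp13-/-. The 3 are named after their values were seen. After subtraction of the receptor gene rate, which would give 43.8% to 63.9% of the Mmp13-/- counts of Ryr2, that gene alone of the 3 was still called (1.73, edgeR adjusted p = 0.0104), and Mybpc3 and Myl4 were not (0.121 and 0.0528). Of the lists for other tissues, the pulp and odontoblast list had 4 of 12 genes lower and 3 higher by more than 2-fold (median -0.39), the enamel organ list 2 of 8 lower (0.41), the adipocyte list 1 of 8 lower and 3 higher (0.12), and the Schwann cell list 1 of 7 lower (-0.85).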

How the data were processed

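RNA-seq of dental pulp from 3 WT and 3 Mmp13-/- mice was used, with groups taken from the genotype in the labels. The authors made estimated counts per gene from paired reads in Strand NGS, and deposited beside them log2 values, normalized and centred on each gene's median, which equalled a recomputation from the counts to within 2.35e-06. The submitters' processing notes name mm10 and DESeq. The aligner settings and strand handling are not given in the sources used here. All sample columns were matched, leaving 0 unmatched.

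Rounded estimated counts were fitted with edgeR 4.0.16 under R 4.3.3 (quasi-likelihood test, TMM factors, edgeR's low-count filter, no covariates, Benjamini-Hochberg over all genes tested). A call needs an adjusted p under 0.05 and, where stated, a change over 2-fold. Levels are CPM on TMM-scaled library sizes, and SD is over the 3 libraries of a genotype. P-values set a difference against the spread between these samples. In edgeR that spread is estimated for each gene with information from the other genes. Exon length, GC content and overlaps came from GENCODE M21 (GRCm38), matched for 99.8% of genes, and promoters from RefSeq. Alternatives were RLE, upper-quartile or total-count scaling, a filter of 10 counts per sample or none, DESeq2 1.42.0, limma 3.58.1 on the deposited log2 values, the study's procedure as far as stated, an adjusted p under 0.01, GC correction (loess, span 0.4) and each library left out. The subtraction of the receptor gene rate and scaling without the members were added after seeing the data. On simulated data with 100 genes changed 2-fold and 100 changed 4-fold among 24534, edgeR called 41% and 89% of them, with 6 false calls among 23480 genes tested. The simulation held no GC trend, no difference in the receptor gene rate and no library that stood apart. It therefore does not measure false calls that arise from these.

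The members, classes and lists were chosen with earlier results of these data known. Genes with full values are the most abundant members of each role, the heavy chains, the fast and slow partners and each member without a call, plus the 3 most abundant genes of each companion muscle list. A gene that this rule names is not reported here.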

Additional observations from a re-analysis of the deposited data

How the results depend on the processing

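Over 18 other settings the members lower by more than 2-fold numbered 10 to 24, those lower at any fold 17 to 25, and none was higher by more than 2-fold. The fast and structural medians stayed below 0 in all 16 refits, and the slow median, 0.094, lay between -0.261 and 0.405 and below 0 in 5 of them. GC correction gave 10 members lower by more than 2-fold, a fast median of -0.715 and a structural median of -0.894. The median of all genes was 0.315 with upper-quartile factors, 0.215 with total counts, 0.029 with at least 10 counts in every sample, 1.006 without a filter, 0.036 with limma, 0.221 with GC correction, 0.043 with background subtraction and 0.072 to 0.183 when libraries were left out in turn. Of all genes tested, 1338 were lower by more than 2-fold with upper-quartile factors and 742 with GC correction, instead of 2375, and 3006 were higher with at least 10 counts, 10952 without a filter and 12332 by the study's procedure as far as stated, instead of 5006. The cause was not tested.

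Signs turned in 7 members that were not called or, for Myh7, called under 2-fold. With GC correction Myh7 was at 0.013, Tnnt1 at 0.089 and Myoz2 at -0.542. Myl3 was at -0.013 without a filter and -0.023 with background subtraction, and Csrp3 at 0.081 with upper-quartile factors, 0.049 with total counts, 0.008 with at least 10 counts and 0.032 with background subtraction. With libraries left out in turn Myl1 ran from -0.666 to 0.038, Myl3 from -0.261 to 0.358, Tnni1 from -0.111 to 0.445 and Csrp3 from -0.463 to 0.082. The fast share of the heavy chain counts, which overlapped between genotypes and was not tested, had a mean difference of -0.0275 percentage points, Mmp13-/- minus WT, -0.0206 per kilobase and -0.0424 to -0.00683 with libraries left out, the last without Mmp13-/- replicate 6. No pairing of WT with Mmp13-/- mice is given in the sources used here, so the genotypes were compared unpaired.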
